A study of Homo sapiens with 15 samples.

Results

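The genes described here carry cystine into the cell and make, break down, recycle or use glutathione. There are 10 of them, taken by symbol from the 19845 gene rows of the deposited tables: SLC7A11, SLC3A2, GCLC, GCLM, GSS, GSR, GGCT, GGT1, GLRX and GLRX2. Of these, 9 passed the filter on low values that also kept 9646 genes in all, and GGT1 did not. The set was defined by function, and it was chosen with earlier results of these data known.

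RNA was measured in 15 libraries of HCC1954, an established HER2-positive human breast cancer line. The labels give 4 libraries of M-BM, cells from metachronous brain metastases, 4 of Lat, brain-tropic latent or residual cells, 4 of S-BM, cells from synchronous brain metastases, and 3 of Pa, the parental line. All are derivatives of the same line, and for every group the labels describe an overnight culture of 1000000 cells in 1 ml of medium R3F before RNA was taken, so the values belong to cultured cells and not to tissue. The labels name no animal or separate culture for any library. The p-values below therefore measure only the spread between these libraries, which may be technical. The closest pair was S-BM 3 and S-BM 4 among S-BM libraries, and Lat 1 and Lat 2 among Lat libraries. These groups may hold fewer than 4 independent samples. M-BM, Lat and S-BM stand in a single normalized table and were compared by test. Pa stands in a separate table and is given as levels.

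Cystine is the oxidized pair of cysteine, and it enters cells in exchange for glutamate through a carrier made of SLC7A11 and SLC3A2. Inside the cell cystine is reduced to cysteine, which glutamate-cysteine ligase joins to glutamate and glutathione synthetase joins on to glycine. Glutathione is the main small thiol of the cell, and it feeds the enzymes that remove peroxides, conjugate foreign compounds and reduce proteins that carry glutathione. In epithelial tumours this pathway is known for buffering oxidative stress and for limiting ferroptosis.

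Promoters are shown for both subunits of glutamate-cysteine ligase, GCLC and GCLM, and for SLC3A2, which changed with SLC7A11. Both subunits were lower in Lat than in S-BM, and in M-BM against S-BM GCLC passed as lower and GCLM did not pass. The subunits were not compared with each other by test. The sequences are from RefSeq on GRCh38.p14, whose promoter table held 11 windows for 6 of the 10 genes. It held none for SLC7A11, GSS, GSR or GGCT. Each line gives the 250 bases before a transcription start, read 5′ to 3′ on the strand of the gene. Capitals mark a match to TGACNNNGC on either strand, the core of the antioxidant response element bound by NRF2 with small MAF proteins. The GCLM stretch lies at chr1:93909431-93909680 on the minus strand, the SLC3A2 stretch at chr11:62881449-62881698 on the plus strand and the GCLC stretch at chr6:53545102-53545351 on the minus strand.
GCLM: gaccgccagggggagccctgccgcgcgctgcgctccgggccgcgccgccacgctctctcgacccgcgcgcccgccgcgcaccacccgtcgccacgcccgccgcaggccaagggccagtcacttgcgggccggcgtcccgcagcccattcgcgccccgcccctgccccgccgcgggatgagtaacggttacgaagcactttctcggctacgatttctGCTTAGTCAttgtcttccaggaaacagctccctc
SLC3A2: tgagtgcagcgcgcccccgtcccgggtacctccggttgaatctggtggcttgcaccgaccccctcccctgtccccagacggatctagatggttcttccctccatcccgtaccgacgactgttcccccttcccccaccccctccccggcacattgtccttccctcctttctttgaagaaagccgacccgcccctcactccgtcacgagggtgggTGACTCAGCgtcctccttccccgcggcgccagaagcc
GCLC: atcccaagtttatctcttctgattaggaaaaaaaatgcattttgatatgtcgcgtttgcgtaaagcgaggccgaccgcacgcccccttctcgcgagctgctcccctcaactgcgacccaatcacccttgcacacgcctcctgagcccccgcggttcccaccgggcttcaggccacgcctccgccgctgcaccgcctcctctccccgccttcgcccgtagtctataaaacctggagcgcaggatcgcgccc
The match in GCLM, GCTTAGTCA, runs from -34 to -26 relative to the start and is the motif read on the reverse strand. The match in SLC3A2, TGACTCAGC, runs from -37 to -29, and its first bases also spell TGACTCA, the AP-1 motif. These letters occur nowhere in the GCLC stretch. The same search covered 50 bases past each start, both strands, and another motif, TGATGNAA, a form of the site bound by ATF4 with C/EBP proteins. It matched once, as TTACATCA at bases 38 to 45 past the same SLC3A2 start, which is not printed. Of 35116 windows of this length, 13.3% held TGACNNNGC, 4.95% held TGACTCA and 3.62% held TGATGNAA. The SLC3A2 stretch is 1 of 3 in the table for that gene and was chosen because it held matches. The other 2 windows of SLC3A2, the 3 of GLRX2, that of GLRX and the first of GGT1 held no match, and the second of GGT1 held GCTGGGTCA from -29 to -21. A match describes letters only and shows no binding. The lack of a match, as in GCLC, covers only this window, and sites farther from the start were not searched.

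Library depth was 14.15 to 21.84 M recovered reads (M, 1000000) in M-BM and Lat, 13.25 to 20.05 M in S-BM and 15.51 to 18.66 M in Pa. Epithelial genes and ERBB2, the gene of the HER2 receptor, were present in every library, and brain markers were mostly low. GFAP of astrocytes reached at most 0.10, AIF1 of microglia 0.06 and MOG of oligodendrocytes 0.11 normalized counts in any library. These are values of human genes, and whether RNA of another species was present was not tested. The 2 neuron markers in the tables summed to 1.27 to 2.43 in M-BM, 1.11 to 4.40 in Lat and 0.354 to 2.97 in S-BM, against 0.0662 to 0.655 in Pa. Nearly all of this was SYT1, which averaged 1.93 in M-BM, 2.18 in Lat and 1.84 in S-BM, against 0.345 in Pa, and its part in the results was not tested. MBP and CD68, from the oligodendrocyte and microglia lists, were present in all groups, Pa included. The summed endothelial markers, 3 of 3 in the tables and none at 0 throughout a group, ran from 4.67 to 11.2 in M-BM and from 6.90 to 7.64 in Lat, against 13.3 to 26.8 in S-BM and 20.2 to 28.1 in Pa, and their part in the results was not tested. S-BM 3 and S-BM 4 stood apart, with 353 and 367 normalized counts of ERBB2, against 4109 and 4642 in S-BM 1 and S-BM 2. In bulk RNA, fewer cells with high expression and less RNA per cell cannot be told apart. Each comparison with S-BM was repeated without S-BM 3 and S-BM 4.

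M-BM and Lat cells carried more RNA for both parts of the cystine carrier than S-BM cells, by 4.48-fold and 3.63-fold for SLC7A11. RNA for glutathione synthetase was also higher in both, while GCLC, the catalytic subunit of glutamate-cysteine ligase, was lower in both. Among the other genes GLRX2 rose and GGCT fell in both comparisons, and GCLM, GSR and GLRX passed the test, as lower, in Lat against S-BM and not in M-BM against S-BM. The difference between M-BM and Lat did not pass for any of these 3. In M-BM against S-BM, 4 of the 9 tested genes were higher and 2 lower at an adjusted p of 0.05 (limma with Benjamini-Hochberg adjustment over 9646 genes), where 52.7% of all tested genes passed, 26.9% as higher and 25.8% as lower. In Lat against S-BM, 4 were higher and 5 lower, where 59.7% of all tested genes passed, 30.2% as higher and 29.4% as lower. GLRX, among the 5 lower, reached the filter value in 0 Lat libraries and in all 4 S-BM libraries. Its call here is therefore a description. The median log2 fold change of the 9 genes was 0.00 in M-BM against S-BM and -0.29 in Lat against S-BM, beside 0.01 in each over all tested genes. Both comparisons use the same 4 S-BM libraries, so they are not independent. For 7 of the 10 genes M-BM and S-BM values did not overlap, beside 46.2% of all tested genes, and Lat and S-BM values did not overlap for 10 of 10, beside 54.5%. Without S-BM 3 and S-BM 4, 6 genes passed in M-BM against S-BM, where 4409 of all 9646 tested genes passed. In Lat against S-BM 8 then passed, where 5112 of all 9646 did.

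**Figure D1:**
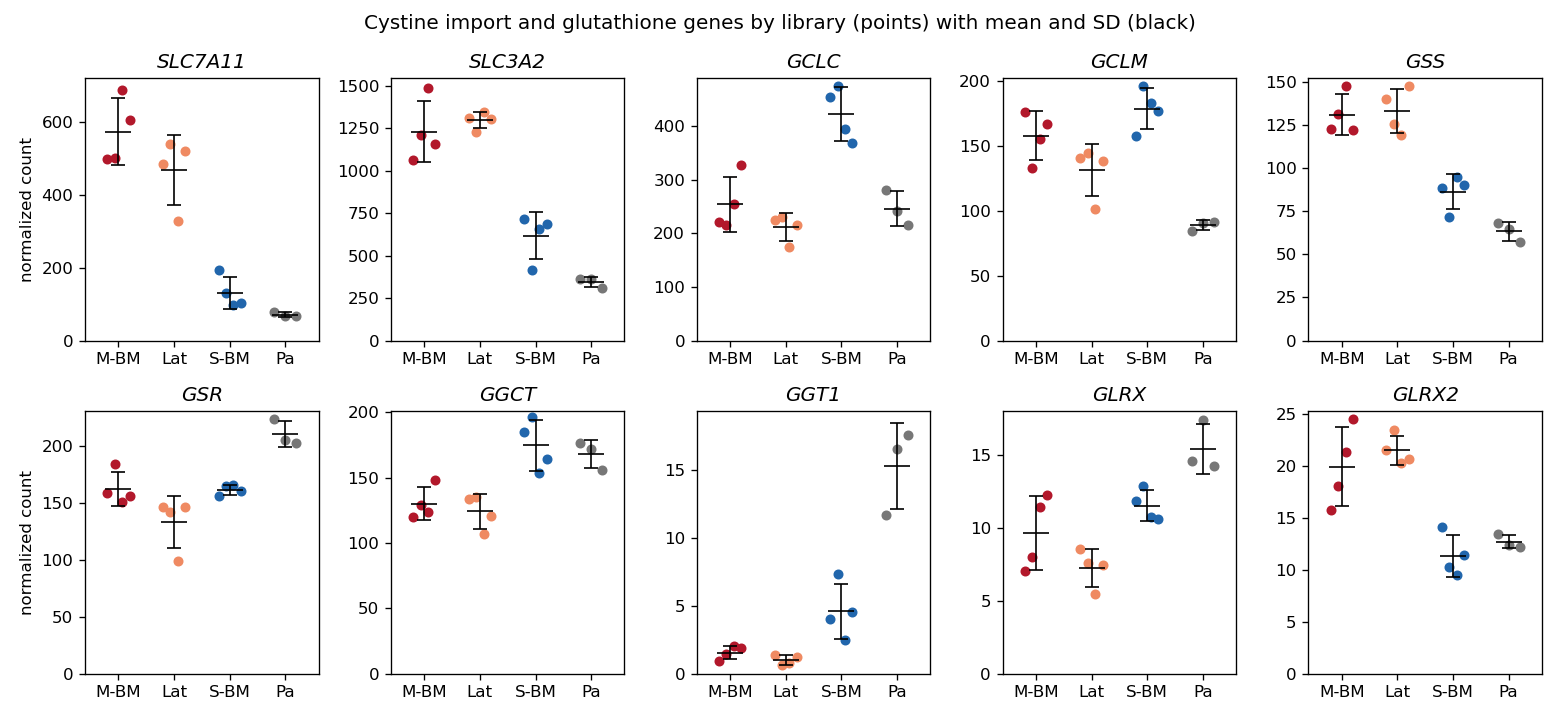
Normalized counts of the 10 genes in each library (points), by group from left to right M-BM, Lat, S-BM and Pa, with group means and SD in black. Each panel has its own axis from 0. SLC7A11 lies between 328 and 687 in M-BM and Lat libraries, above every S-BM library, the highest of which is 194, while GCLC lies lower in M-BM and Lat than in S-BM.

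SLC7A11 is the transport subunit of the cystine-glutamate exchanger and lies on the minus strand of chromosome 4 (138164097 to 138242349, GRCh38). It had 498, 499, 687 and 605 normalized counts in M-BM 1 to 4 and 484, 539.8, 328 and 519 in Lat 1 to 4, against 194, 129.9, 98.0 and 102 in S-BM 1 to 4. Every M-BM and Lat library lay above every S-BM library, and Lat 3 was the lowest of the Lat libraries. The means were 572 ± 91.6 in M-BM and 468 ± 95.9 in Lat, against 131 ± 44.4 in S-BM (SD, n = 4 each). The log2 fold change was 2.16 (SE 0.21, 95% interval 1.71 to 2.61, limma adjusted p = 4.89e-06) in M-BM against S-BM. In Lat against S-BM it was 1.86 (SE 0.21, 95% interval 1.41 to 2.31, limma adjusted p = 6.19e-06). These stand at the 99.3 and 98.8 percentiles of the log2 fold changes of all tested genes in their comparison. S-BM 1 was the highest of its group and S-BM 3 and 4 the lowest, and without S-BM 3 and S-BM 4 the log2 fold changes were 1.83 in M-BM and 1.53 in Lat. An antisense gene, SLC7A11-AS1, shares 865 of the 9645 exon bases, and reads of the strands cannot be told apart with this kit. Its own value never exceeded 0.767.

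SLC3A2, the CD98 heavy chain, brings SLC7A11 and several other amino acid carriers to the plasma membrane. It lies on the plus strand of chromosome 11 (62856109 to 62888860), and a promoter of it is printed above. It had 1066, 1210.4, 1486 and 1161 normalized counts in M-BM 1 to 4 and 1311, 1231, 1346 and 1303 in Lat 1 to 4, against 715, 415, 658 and 684 in S-BM 1 to 4. The Lat libraries were the closest to each other, S-BM 2 was the lowest library, and neither M-BM nor Lat overlapped S-BM. SLC3A2 was 2.02-fold higher in M-BM than in S-BM (log2 fold change 1.01, SE 0.15, limma adjusted p = 0.000122). In Lat it was 2.14-fold higher than in S-BM (log2 fold change 1.10, SE 0.15, limma adjusted p = 4.09e-05). The percent of spread within a group (SD over mean) was 14.6% in M-BM and 3.72% in Lat, against 22.2% in S-BM.

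GCLC is the catalytic subunit of glutamate-cysteine ligase, the first and rate-limiting enzyme of glutathione synthesis, on the minus strand of chromosome 6 (53497341 to 53545101). It had 221, 216, 255 and 327 normalized counts in M-BM 1 to 4 and 226, 231, 175 and 216 in Lat 1 to 4, against 454, 475, 395 and 368 in S-BM 1 to 4. M-BM 4, the highest M-BM library, was still below S-BM 4, the lowest S-BM library. The log2 fold change was -0.74 in M-BM against S-BM (SE 0.14, limma adjusted p = 0.00056), a level 1.67-fold lower. In Lat against S-BM the log2 fold change was -0.995 (SE 0.14, limma adjusted p = 3.78e-05), a level 1.99-fold lower. GCLC thus moved in the direction opposite to that of SLC7A11 and SLC3A2 in both comparisons.

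GCLM is the modifier subunit, which raises the affinity of the ligase for glutamate and eases its inhibition by glutathione. It lies on the minus strand of chromosome 1 (93885199 to 93909430). It had 176, 133, 155 and 167 normalized counts in M-BM 1 to 4 and 141, 145, 101.2 and 138 in Lat 1 to 4, against 158, 196, 183 and 177 in S-BM 1 to 4. M-BM overlapped S-BM, whereas all Lat libraries were below all S-BM libraries and Lat 3 was the lowest. In M-BM against S-BM the log2 fold change was -0.18 with a 95% interval from -0.45 to 0.09 and did not pass (limma adjusted p = 0.238). In Lat against S-BM GCLM was 1.37-fold lower (log2 fold change -0.45, SE 0.13, limma adjusted p = 0.00663). Without Lat 3 the log2 fold change in Lat against S-BM was -0.33 (limma adjusted p = 0.017).

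GSS, glutathione synthetase, adds glycine in the last step and lies on the minus strand of chromosome 20 (34928432 to 34956027). It had 123, 132, 147 and 122 normalized counts in M-BM 1 to 4 and 139.997, 126, 119 and 148 in Lat 1 to 4, against 88.3, 71.5, 94.8 and 90.3 in S-BM 1 to 4. The M-BM and Lat libraries mixed with each other and stayed above all S-BM libraries. GSS was 1.52-fold higher in M-BM than in S-BM (log2 fold change 0.60, SE 0.11, limma adjusted p = 0.000402) and 1.54-fold higher in Lat than in S-BM (log2 fold change 0.62, SE 0.11, limma adjusted p = 0.000222). The catalytic subunit of the first enzyme was thus lower, and the last enzyme higher, in M-BM and Lat than in S-BM.

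**Figure D2:**
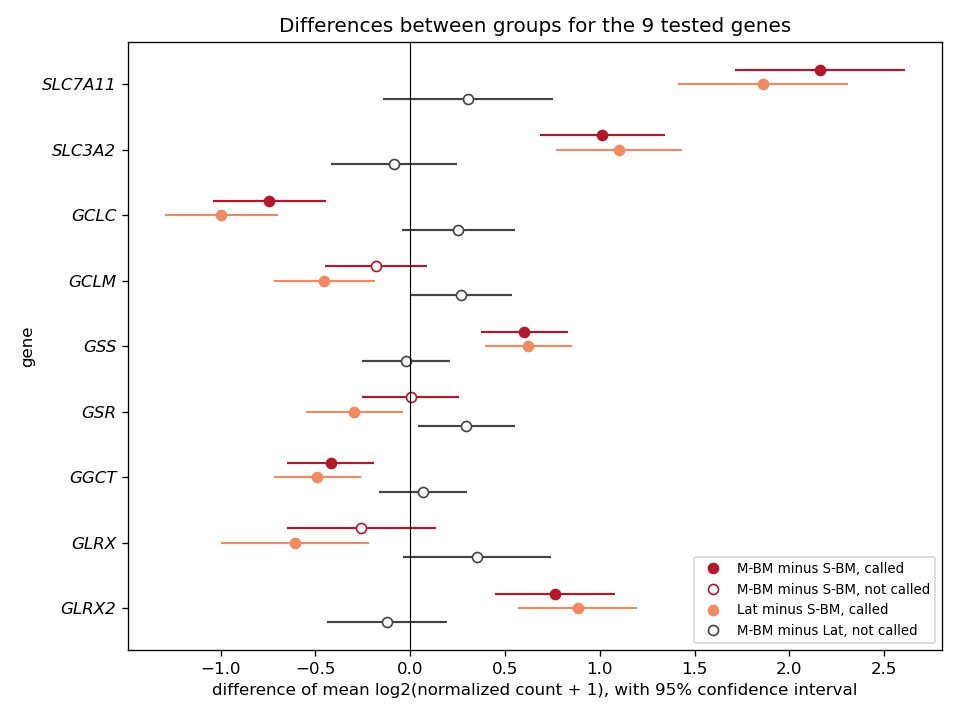
Differences of mean log2(normalized count + 1) for the 9 tested genes, drawn as points with 95% confidence intervals, for the 3 pairs of groups. Filled points passed an adjusted p of 0.05 and open points did not. SLC7A11, SLC3A2, GSS and GLRX2 lie right of 0 and GCLC and GGCT left of 0 in both comparisons with S-BM, and every point of M-BM minus Lat is open.

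GGT1 is gamma-glutamyltransferase 1, an enzyme of the cell surface that starts the breakdown of extracellular glutathione and so returns cysteine to the cell. It had 0.886, 1.40, 1.99 and 1.90 normalized counts in M-BM 1 to 4 and 1.39, 0.665, 0.777 and 1.19 in Lat 1 to 4, against 3.99, 7.29, 2.47 and 4.54 in S-BM 1 to 4. These are 18 to 41 reads in M-BM and 12 to 27 in Lat, against 33 to 144 in S-BM, so the gene was detected everywhere at a low level, and a floor of 3 reads corresponds to 0.136 to 0.225 normalized counts. All M-BM and Lat libraries were below all S-BM libraries. The mean of log2(value + 1) was lower by 1.08 in M-BM and by 1.42 in Lat than in S-BM, each with p = 0.0286 in a two-sided exact permutation test and 0.0429 after Benjamini-Hochberg adjustment over the 3 group pairs. That p is the smallest that 4 against 4 libraries can give. GGT1 lies on chromosome 22 (24583750 to 24628996, plus strand) and shares 306 of its 4434 exon bases with SNRPD3, which had 126 to 145 normalized counts in M-BM and 114 to 131 in Lat, against 144 to 163 in S-BM. The part of shared reads in the low GGT1 values was not tested. The near-identical copies GGT3P, GGT8P, GGTLC1 and GGTLC2 reached at most 0.125 in any library.

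GGCT, gamma-glutamylcyclotransferase, acts on gamma-glutamyl amino acids inside the cell and lies on the minus strand of chromosome 7 (30496621 to 30504829). It had 119.7, 129, 124 and 148 normalized counts in M-BM 1 to 4 and 134, 135, 107 and 121 in Lat 1 to 4, against 185, 196, 154 and 164 in S-BM 1 to 4. Neither M-BM nor Lat overlapped S-BM, although M-BM 4 came close to S-BM 3. GGCT was 1.34-fold lower in M-BM than in S-BM (log2 fold change -0.42, SE 0.11, limma adjusted p = 0.00505) and 1.40-fold lower in Lat than in S-BM (log2 fold change -0.49, limma adjusted p = 0.00143). Another annotated gene, AC005154.5, covers 441 of its 1597 exon bases, so its reads may be split.

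GSR, glutathione reductase, returns oxidized glutathione to its reduced form with NADPH and lies on the minus strand of chromosome 8 (30678066 to 30727846). It had 159, 184, 150.2 and 156 normalized counts in M-BM 1 to 4 and 146, 142, 98.9 and 146 in Lat 1 to 4, against 156, 164, 165 and 160.1 in S-BM 1 to 4. M-BM libraries lay on both sides of the S-BM libraries, and all Lat libraries were below them, Lat 3 by the most. The log2 fold change was 0.00 in M-BM against S-BM, with a 95% interval from -0.25 to 0.26 (limma adjusted p = 0.985). In Lat against S-BM it was -0.29 (SE 0.12, limma adjusted p = 0.046). This call was lost without Lat 3, at -0.16 (limma adjusted p = 0.125), and without S-BM 3 and S-BM 4, at -0.28 (limma adjusted p = 0.145), and passed in 10 of 23 alternative settings.

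The glutaredoxins use glutathione to reduce proteins, GLRX mainly in the cytosol and GLRX2 mainly in mitochondria. GLRX2, on the minus strand of chromosome 1 (193096465 to 193106114), had 15.8, 18.1, 21.3 and 24.5 normalized counts in M-BM 1 to 4 and 21.6, 23.5, 20.2 and 20.7 in Lat 1 to 4, against 14.1, 10.2, 9.45 and 11.5 in S-BM 1 to 4. M-BM 1 was the lowest of the M-BM and Lat libraries and still above S-BM 1, the highest S-BM library. GLRX2 was 1.70-fold higher in M-BM than in S-BM (log2 fold change 0.76, SE 0.15, limma adjusted p = 0.000722) and 1.84-fold higher in Lat than in S-BM (log2 fold change 0.88, SE 0.15, limma adjusted p = 0.000169).

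GLRX, on the minus strand of chromosome 5 (95813849 to 95822726), had 7.04, 7.95, 11.4 and 12.2 normalized counts in M-BM 1 to 4 and 8.53, 7.59, 5.44 and 7.46 in Lat 1 to 4, against 11.8, 12.9, 10.7 and 10.6 in S-BM 1 to 4. It reached the filter value of 10 in all 4 S-BM libraries, in 2 of M-BM and in 0 of Lat, so it would not have been tested without its S-BM values. Its call as lower in Lat is therefore a description. M-BM 3 and M-BM 4 lay among the S-BM libraries, while all Lat libraries were below them. The log2 fold change was -0.26 in M-BM against S-BM (95% interval -0.65 to 0.13, limma adjusted p = 0.251). In Lat against S-BM it was -0.61 (SE 0.18, limma adjusted p = 0.0105). GLRX lies inside RHOBTB3 on the opposite strand, with 0 shared exon bases, and reads from introns of RHOBTB3, which had 293 to 405 normalized counts in M-BM and 192 to 324 in Lat, against 414 to 467 in S-BM, cannot be told apart from GLRX reads.

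Between M-BM and Lat none of the 9 tested genes passed, where 0.145% of all tested genes did, 0.0933% as higher and 0.0518% as lower. Without adjustment, 2 of the 9 had p under 0.05 in limma, beside 10.9% of all tested genes, and edgeR and DESeq2 on recovered reads each called 0 of the 9. The 2 genes were GSR and GCLM. For GSR the log2 fold change was 0.30 (limma adjusted p = 0.38) and the M-BM and Lat libraries did not overlap, the lowest of M-BM being 150.2 and the highest of Lat 146. Of all tested genes, 7.3% did not overlap between M-BM and Lat. For GCLM the log2 fold change was 0.27 (limma adjusted p = 0.456). For SLC7A11 it was 0.30 with a 95% interval from -0.14 to 0.75 (limma adjusted p = 0.646), for SLC3A2 -0.09 from -0.42 to 0.24 (limma adjusted p = 0.877) and for GCLC 0.25 from -0.04 to 0.55 (limma adjusted p = 0.532). These intervals do not exclude differences of those sizes. GGT1 differed by 0.34 on the log2(value + 1) scale (two-sided exact permutation p = 0.114).

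Pa cells had the lowest SLC7A11 of the 4 groups, with 78.5, 68.4 and 66.3 normalized counts in Pa 1 to 3. The group means were 8.06 times the Pa mean in M-BM, 6.58 times in Lat and 1.84 times in S-BM, and all libraries of each lay above Pa. Pa values come from a separately normalized table and were not tested. Scaling Pa by the median ratio over 8846 genes, a factor of 0.993, moved no level by over 1 SD. Of the 10 genes, 9 did not overlap Pa in M-BM, 9 in Lat and 8 in S-BM, beside 66.6% of all tested genes in M-BM, 71.4% in Lat and 42.4% in S-BM. Of all tested genes, 35% lay wholly above and 31.6% wholly below Pa in M-BM, 36.9% and 34.6% in Lat, and 22.7% and 19.7% in S-BM.

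SLC3A2, GSS and GCLM also lay above Pa in all brain-derived libraries. SLC3A2 had 361, 363 and 309 normalized counts in Pa, and the means were 3.57 times the Pa mean in M-BM, 3.77 times in Lat and 1.79 times in S-BM. GCLM had 84.4, 90.3 and 91.6 in Pa, with means of 1.78 times Pa in M-BM, 1.48 in Lat and 2.01 in S-BM. GSS had 68.0, 64.7 and 57.4 in Pa, with means of 2.07 times Pa in M-BM, 2.10 in Lat and 1.36 in S-BM. S-BM was the highest group for GCLM and the lowest of the brain-derived groups for GSS.

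GCLC followed another order. With 281, 242 and 216 normalized counts in Pa 1 to 3, it overlapped M-BM (1.04 times the Pa mean) and Lat (0.861 times), and only S-BM, at 1.72 times, lay wholly above Pa. GGCT, with 177, 172 and 156 in Pa, overlapped S-BM (1.04 times) and was below Pa in M-BM (0.773 times) and Lat (0.737 times). GLRX2, with 13.4, 12.4 and 12.2 in Pa, was 1.57 times Pa in M-BM and 1.69 times in Lat, both without overlap, and 0.890 times in S-BM with overlap. For GCLC it is therefore S-BM, and for GLRX2 and GGCT it is M-BM and Lat, that lie away from the parental level.

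GGT1, GSR and GLRX lay below Pa in all brain-derived libraries. GGT1 had 11.6, 16.5 and 17.6 normalized counts in Pa 1 to 3, and the Pa mean was 9.86 times that of M-BM, 15.2 times that of Lat and 3.33 times that of S-BM. GSR had 224, 205 and 202 in Pa, with means of 0.771 times Pa in M-BM, 0.633 in Lat and 0.768 in S-BM. GLRX had 14.6, 17.4 and 14.2 in Pa, with means of 0.627 times Pa in M-BM, 0.471 in Lat and 0.747 in S-BM. Lat had the lowest mean of all groups for these 3 genes.

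Ratios within a library remove the scaling between libraries, though not the difference in transcript length between the genes. The ratio of SLC7A11 to GCLC was 1.85 to 2.70 in M-BM and 1.88 to 2.41 in Lat, against 0.248 to 0.427 in S-BM and 0.279 to 0.307 in Pa. S-BM and Pa shared a range that neither M-BM nor Lat reached. The ratio of the catalytic to the modifier subunit, GCLC to GCLM, was 1.25 to 1.96 in M-BM and 1.56 to 1.73 in Lat, against 2.08 to 2.88 in S-BM and 2.35 to 3.33 in Pa. GCLC to GSS was 1.64 to 2.68 in M-BM and 1.46 to 1.84 in Lat, against 4.08 to 6.64 in S-BM and 3.74 to 4.14 in Pa. GLRX2 to GLRX was 1.87 to 2.28 in M-BM and 2.53 to 3.72 in Lat, against 0.795 to 1.19 in S-BM and 0.716 to 0.923 in Pa, and Lat was above M-BM without overlap. Among these, Lat and S-BM overlapped only for SLC7A11 to SLC3A2, at 0.412 to 0.521 in M-BM and 0.244 to 0.438 in Lat, against 0.149 to 0.313 in S-BM and 0.188 to 0.217 in Pa.

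**Figure D3:**
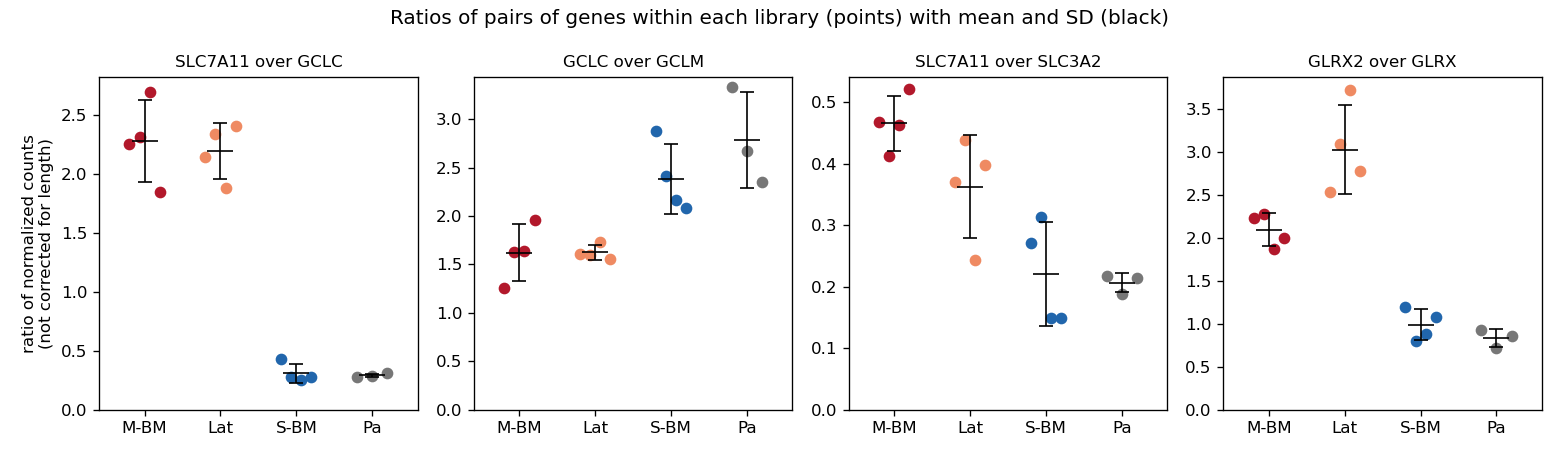
Ratios of normalized counts of gene pairs within each library (points), not corrected for transcript length, in M-BM, Lat, S-BM and Pa from left to right, with mean and SD in black. SLC7A11 over GCLC is at least 1.85 in every M-BM and Lat library and at most 0.427 in every S-BM and Pa library.

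The tested genes whose profile over the 12 M-BM, Lat and S-BM libraries was nearest to that of SLC7A11 were HSPA13, HYDIN, ZNF28, CALB2 and CENPV. Their root mean square differences from SLC7A11 on the centred log2 scale were 0.307, 0.323, 0.339, 0.341 and 0.344. HYDIN, CALB2 and CENPV averaged 2.35, 4.57 and 5.51 normalized counts in S-BM, below the filter value of 10. They were tested only because of their M-BM and Lat values, so their likeness to SLC7A11 is a description. HSPA13, a member of the Hsp70 family, averaged 158 ± 18.1 normalized counts in M-BM and 154 ± 16.02 in Lat, against 34.7 ± 3.93 in S-BM (SD, n = 4 each), and 36.7 ± 7.20 in Pa (SD, n = 3). SLC3A2 ranked 309 among 9645 genes by this measure and GLRX2 436, while GCLC ranked 8657. The nearest to GCLM were SNX4, TPM4 and KIAA0196, with differences of 0.071, 0.0767 and 0.0897, and the nearest to GCLC were SYPL1, CDH1 and RCBTB1, with 0.0958, 0.0989 and 0.1002. GCLM ranked 1392 by likeness to GCLC.

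Genes around the 10 were taken from 8 lists with 116 entries, of which 114 are in the tables and 82 were tested. Beside the background of 26.9% higher and 25.8% lower in M-BM against S-BM and 30.2% and 29.4% in Lat against S-BM, the calls were as follows. Without S-BM 3 and S-BM 4 the background was 2178 of 9646 genes higher and 2231 lower in M-BM than in S-BM. In Lat against S-BM it was then 2514 of 9646 higher and 2598 lower. None of the 82 passed between M-BM and Lat in the fit reported, and GGT6, described below, passed there under 6 alternatives. Genes passed the filter on low values through any group, and some through the high group alone. Among the called genes, GSTT1, TXNRD3 and ABCC2 reached 10 normalized counts in 0 libraries of the lower side in both comparisons with S-BM, and GGT6 in 0 Lat libraries, so these had to differ to be tested and are descriptions. CTH and ABCC4 reached 10 in 1 S-BM library each, CHAC2 and ESD in 2 each, and GGT6 in 1 M-BM library. These would not have been tested without the groups where they were high, and their calls are descriptions too.

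The exchanger also depends on which partners SLC3A2 has. SLC7A5, the large neutral amino acid carrier that pairs with SLC3A2, averaged 2202 normalized counts in M-BM and 2159 in Lat, against 1307 in S-BM and 683 in Pa, with log2 fold changes of 0.78 in M-BM and 0.76 in Lat. SLC7A6, another partner, averaged 53.2 in M-BM and 53.3 in Lat, against 75.6 in S-BM and 59.7 in Pa, with log2 fold changes of -0.49 and -0.52. These were the only 2 partners that were tested.

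Of 11 tested genes of cysteine supply, 3 were higher and 3 lower in M-BM than in S-BM, and 4 were higher and 3 lower in Lat than in S-BM. Without S-BM 3 and S-BM 4, 3 were higher and 3 lower in each. CTH, which releases cysteine from cystathionine, rose with log2 fold changes of 1.17 in M-BM and 1.49 in Lat. It reached 10 normalized counts in 3 M-BM, 4 Lat and 1 S-BM libraries, so its calls are descriptions. CBS, which makes cystathionine, fell with -0.60 in M-BM (limma adjusted p = 0.00293) and -0.93 in Lat (limma adjusted p = 7.5e-05), and was named after its values were seen. SLC1A1, a glutamate and cysteine carrier, averaged 29.8 in M-BM and 17.4 in Lat, against 121 in S-BM and 148 in Pa. SLC1A4, a carrier of neutral amino acids, rose with 1.14 in M-BM and 1.19 in Lat.

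Of the 6 tested genes of glutathione breakdown outside the 10, 3 were higher and 3 lower in each comparison, and 2 were higher and 2 lower in each without S-BM 3 and S-BM 4. GGT6, a relative of GGT1, averaged 5.62 ± 3.75 normalized counts in M-BM and 0.520 ± 0.359 in Lat, against 21.9 ± 6.28 in S-BM (SD, n = 4 each). It reached 10 in 1 M-BM library, 0 Lat libraries and all 4 S-BM libraries. Between M-BM and Lat its libraries did not overlap, and its log2 fold change of 1.96 did not pass (limma adjusted p = 0.0589). It passed there with edgeR (3.47, adjusted p = 0.0292), with DESeq2 (3.46, adjusted p = 1.6e-08), with the replicate number as a block (limma adjusted p = 0.0493), without M-BM 1 (2.32, limma adjusted p = 0.0078), with a pseudocount of 0.5 (2.42, limma adjusted p = 0.0395) and with a filter of 1 (limma adjusted p = 0.0356). CHAC2, which cleaves glutathione in the cytosol, rose with log2 fold changes of 0.79 in M-BM and 0.99 in Lat. CNDP2, a peptidase of the cysteinylglycine that GGT1 leaves, fell with -0.39 in M-BM and -0.72 in Lat.

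Of 14 tested glutathione peroxidases, transferases and related enzymes, 4 were higher and 6 lower in each comparison. Without S-BM 3 and S-BM 4, 4 were higher and 3 lower in M-BM, and 3 were higher and 4 lower in Lat, than in S-BM. GSTT1 had 3.41 to 5.66 normalized counts in M-BM and 2.41 to 3.88 in Lat, against 12.2 to 14.6 in S-BM, with log2 fold changes of -1.49 in M-BM and -1.83 in Lat. GSTM3 fell with -1.29 in M-BM and -1.58 in Lat. ESD, which completes the glutathione-dependent removal of formaldehyde, rose with 1.79 in M-BM and 1.82 in Lat, and its 2 lowest libraries were S-BM 1 and S-BM 2, at 3.7 and 3.0 normalized counts. Its mean was 24.4 in Pa, beside 29.2 in M-BM, 29.6 in Lat and 9.86 in S-BM. Without S-BM 3 and S-BM 4, which had 18.1 and 14.7, the values for ESD were 2.79 in M-BM and 2.82 in Lat. GPX4, which uses glutathione to remove lipid peroxides, had 0.32 in M-BM (limma adjusted p = 0.118) and 0.19 in Lat (limma adjusted p = 0.327), and was named after its values were seen. In M-BM it passed without S-BM 3 and S-BM 4 (0.54, limma adjusted p = 0.0279), without S-BM 4 (0.43, limma adjusted p = 0.0462) and without M-BM 4 (0.46, limma adjusted p = 0.0189).

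Of 8 tested transporters of glutathione and its conjugates, 2 were higher and 4 lower in M-BM, and 2 were higher and 5 lower in Lat, than in S-BM. Without S-BM 3 and S-BM 4, 1 was higher and 4 lower in M-BM, and 2 were higher and 4 lower in Lat. ABCC2, an exporter of glutathione conjugates, averaged 46.9 normalized counts in M-BM and 49.9 in Lat, against 5.53 in S-BM, where the highest library had 8.25, with log2 fold changes of 2.89 and 3.03. ABCC4 was higher than in S-BM, with log2 fold changes of 1.39 in M-BM and 1.83 in Lat. The M-BM call was lost without S-BM 3 and S-BM 4 (0.93, limma adjusted p = 0.0672). The mean of ABCC4 was 39.99 in Pa, beside 22.6 in M-BM, 28.1 in Lat and 7.90 in S-BM. Pa thus had the highest mean and S-BM the lowest, and Pa was not tested. ABCC5 fell with -1.04 in M-BM and -1.02 in Lat.

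Of 15 tested thioredoxin and other glutaredoxin genes, 9 were higher and 1 lower in M-BM, and 8 were higher and 2 lower in Lat, than in S-BM. The list includes TXNRD1, thioredoxin reductase, with log2 fold changes of 0.89 in M-BM and 0.86 in Lat, named after its values were seen. SRXN1, sulfiredoxin, rose with 0.99 in M-BM and 1.12 in Lat, and PRDX4, a peroxiredoxin of the endoplasmic reticulum, with 1.17 in M-BM and 1.22 in Lat. TXNIP, an inhibitor of thioredoxin, had a log2 fold change of 2.49 in Lat (limma adjusted p = 0.0191), where Lat 3 held 1481 normalized counts and the other Lat libraries 81.9 to 90.4. In M-BM it was 1.55 (limma adjusted p = 0.131), which passed without Lat 3 (limma adjusted p = 0.0215) and with only M-BM and S-BM in the fit (limma adjusted p = 0.0431). Without Lat 3 it was 1.47 in Lat (limma adjusted p = 0.0375). In Lat it did not pass without S-BM 3 (limma adjusted p = 0.0527) or without S-BM 3 and S-BM 4 (limma adjusted p = 0.174). Of 10 tested genes of NADPH supply, 3 were higher and 2 lower in M-BM, and 0 were higher and 5 lower in Lat, than in S-BM. Those lower in Lat were PGD, TKT, ME1, IDH1 and IDH2, with -1.17 for IDH1 and -1.003 for IDH2. Without S-BM 3 and S-BM 4, 2 were higher and 2 lower in M-BM, and 1 was higher and 5 were lower in Lat.

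**Figure D4:**
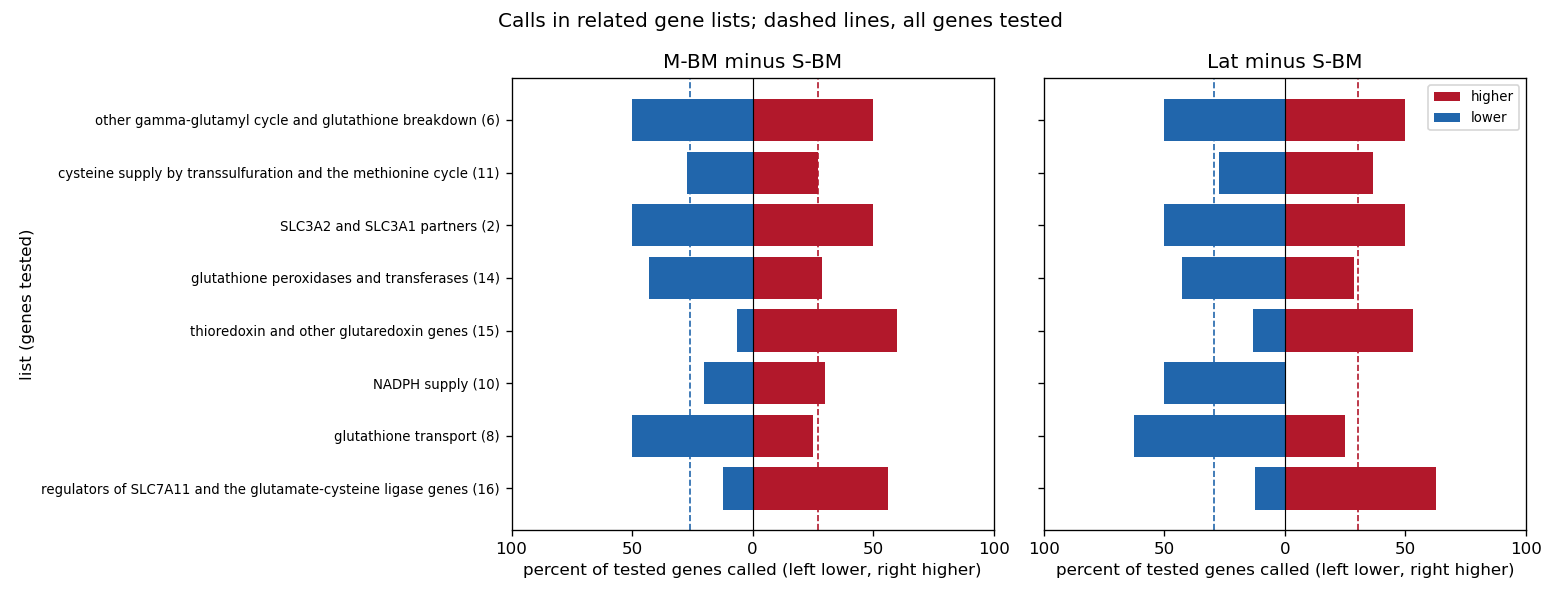
Percent of the tested genes of each related list that passed an adjusted p of 0.05, higher to the right and lower to the left, in M-BM minus S-BM (left panel) and Lat minus S-BM (right panel), with the number tested in brackets. Dashed lines give the share over all tested genes, 26.9% higher and 25.8% lower in M-BM minus S-BM and 30.2% and 29.4% in Lat minus S-BM. The thioredoxin list has 9 of 15 genes higher in M-BM than in S-BM.

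Of 16 tested regulators of SLC7A11 and of glutamate-cysteine ligase, 9 were higher and 2 lower in M-BM, and 10 were higher and 2 lower in Lat, than in S-BM. MAFF, a small MAF protein that pairs with NRF2 or BACH1, averaged 63.3 normalized counts in M-BM and 74.7 in Lat, against 17.8 in S-BM and 5.67 in Pa, with log2 fold changes of 1.80 and 2.03. MAFG, another small MAF protein, rose with 0.99 in M-BM and 1.13 in Lat. ETS1 rose with 0.92 in Lat and had 0.38 in M-BM (limma adjusted p = 0.13), and it did not pass in M-BM against Lat. The 2 genes that were lower in both comparisons were BAP1 and STAT3. The next 4 were named after their values were seen. ATF4, which drives amino acid supply genes under stress, averaged 548 in M-BM and 578 in Lat, against 312 in S-BM and 238 in Pa, with log2 fold changes of 0.81 (limma adjusted p = 1.1e-05) and 0.89 (limma adjusted p = 3e-06). NFE2L2, the gene of NRF2, had 0.33 in M-BM (limma adjusted p = 0.0124) and 0.45 in Lat (limma adjusted p = 0.0016), and without S-BM 3 and S-BM 4 the M-BM call was lost (limma adjusted p = 0.0746). KEAP1, which targets NRF2 for degradation, had -0.03 in M-BM (limma adjusted p = 0.803) and -0.05 in Lat (limma adjusted p = 0.681), and BACH1, a repressor at the same motif, had 0.03 in each. RNA levels do not measure the activity of these proteins. Without S-BM 3 and S-BM 4, 8 regulators were higher and 1 lower in M-BM than in S-BM, and 8 thioredoxin genes were higher and 0 lower. In Lat, 10 regulators were then higher and 2 lower, and 7 thioredoxin genes were higher and 2 lower.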

How the data were processed

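Per the labels, total RNA came from cultured cells (RNeasy kit) and libraries from a TruSeq v2 kit, which does not mark strand. Per the submitters' processing notes, Bowtie 0.12.2 and GRCh38 were used; the sources used here give no counter, annotation or normalization method. In each deposited table the signal values are normalized counts per gene, which the authors scaled to similar totals (column sums 963150 to 1026297). All values were whole multiples of 1 read within 0.05 reads (100% of values), so reads were recovered for alternative count tests and depth (13.25 to 21.84 M reads per library). This number of reads sets the counting precision, and floors of 3 reads cover counting error only.

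M-BM, Lat and S-BM (12 libraries) were fitted together with limma 3.58.1 (R 4.3.3) on log2(value + 1), with a variance trend, group means and 9 residual degrees of freedom. Genes reaching 10 normalized counts in 4 or more of these libraries were tested (9646). Adjustment was by Benjamini-Hochberg over them all, with two-sided p-values and a threshold of 0.05, and the fold changes are on this log2(value + 1) scale. This understates changes of low genes. GGT1, below the filter, was tested by exact permutation. edgeR 4.0.16 (quasi-likelihood) and DESeq2 1.42.0 on recovered reads, pseudocounts, filters, normalizations and left-out libraries were alternatives. The scripts were tested on simulated data.

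The genes and lists were chosen with earlier results of these data known. All 10 genes are named. In addition, the text names the 5 tested genes nearest to SLC7A11 and the 3 nearest to GCLM and GCLC, and at most 3 called genes per list with the largest change in a comparison with S-BM. Other genes named are said to be chosen after their values were seen, except for markers, gene overlaps and counts of 5 or fewer. The replicate numbers are not stated to mark a shared animal or batch, and the fit reported did not pair the libraries by them. Positions and promoters are from RefSeq GRCh38.p14, and exon overlaps from GENCODE on GRCh38. No identical libraries were found. Some were close by a noise ratio, which is lower for libraries that are more alike. It was 3.59 between S-BM 3 and S-BM 4, against 36.1 to 72.9 for other S-BM pairs. Between Lat 1 and Lat 2 it was 4.13, against 9.49 to 45.6 for other Lat pairs. M-BM pairs had 17.4 to 42.6 and Pa pairs 6.56 to 19.9. An alternative fit averaged each of these close pairs. Whether either pair repeats a single culture was not tested.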

Additional observations from a re-analysis of the deposited data

Results flagged for a closer look

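In the 4 Lat libraries, 2 genes had a single low library, Lat 3, farther from the rest than Dixon's test allows at 95%. GCLM had 101.2 normalized counts in Lat 3, against 138 to 145 in the other Lat libraries, with a gap of 0.853 of the range. GSR had 98.9 in Lat 3, against 142 to 146 in the others, with a gap of 0.913 of the range. These were 2 of 30 groups of 4 libraries examined over the 10 genes, and chance flags about 1 in 20. TXNIP was also far higher in Lat 3 than in the other Lat libraries.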

How the results depend on the processing

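Each comparison was refitted under 23 alternatives, with 621 values in all, of which 598 kept their direction and their side of the threshold. SLC7A11, SLC3A2, GCLC, GSS, GGCT and GLRX2 passed in all 23 in both comparisons with S-BM, with log2 fold changes of SLC7A11 from 1.83 to 2.37 in M-BM and from 1.53 to 2.07 in Lat. GCLM and GLRX passed in all 23 in Lat against S-BM and in 0 in M-BM against S-BM. For GLRX, the alternatives with the same filter share its dependence on the S-BM values. GSR in Lat against S-BM lost its call in 13 alternatives, among them without M-BM 1, M-BM 3, M-BM 4, Lat 3 or any of the 4 S-BM libraries. The number of the 10 genes called was 6 or 7 in M-BM against S-BM and 8 to 10 in Lat against S-BM, with GGT1 gained under the looser filters and GSR lost where the Lat count was 8 and, with no filter, 9. It was 0 between M-BM and Lat. Values near 0 changed sign. GSR in M-BM against S-BM was -0.0059 with edgeR, -0.011 with DESeq2 and -0.058 to 0.038 over the fits that left out a library, below 0 without M-BM 2, S-BM 1 or S-BM 4. In M-BM against Lat, leaving out a library gave -0.079 to 0.029 for GSS, above 0 without M-BM 1, M-BM 4, Lat 1 or Lat 4, and -0.0011 to 0.112 for GGCT, below 0 without Lat 3. The count of all genes called between M-BM and Lat was 14, and 26 with a filter of 1, 24 with no filter, 5 with only those groups in the fit, 3 with close libraries averaged and 141 with DESeq2, and it ran from 3 (without M-BM 4, Lat 1 or Lat 2) over 6 (without M-BM 3) to 30 (without M-BM 1) when a library was left out. The cause was not tested. With the replicate number as a block, 5002 genes were called in M-BM against S-BM, 5675 in Lat against S-BM and 13 in M-BM against Lat, with 6, 9 and 0 of the 10 genes and no change of call among them. Same-numbered libraries correlated between -0.272 and 0.319 in their deviations from group means, above 0.1 in 4 of 12 pairs. Pairs with other numbers correlated between -0.305 and 0.322, above 0.1 in 7 of 36. So few pairs cannot decide whether the numbers pair the libraries. For the related lists, GGT6 in Lat against S-BM, -3.91 in the fit reported, was -2.26 with a pseudocount of 5 and -5.45 with edgeR. Depth limits GGT1 most, with as few as 12 reads in a library.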
